A study of Mus musculus with 8 samples.

Results

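The genes described here are 9 complement components and regulators, measured by mRNA sequencing in cells that the study took from mouse liver as endothelial cells (ECs). They were chosen by symbol (C3, C4b, C2, Cfb, Cfd, Serping1, C1ra, Cd55 and Cd59a), in a choice made with earlier results of these data known, and each had 1 row among the 22520 genes of the deposited table. The series held 4 WT and 4 LRP1 eKO libraries, and the question was what loss of the lipoprotein receptor LRP1 in ECs does to their transcripts. LRP1 eKO mice were LRP1 f/f; Cdh5-CreER+/-, and WT mice were LRP1 f/f; Cdh5-CreER-/- littermates, all C57BL/6 and at postnatal day 14 by the labels. Floxed Lrp1 was thus common to both groups, whereas CreER, driven by the endothelial Cdh5 promoter, was carried by LRP1 eKO mice only, so that effects of CreER and of Lrp1 loss cannot be told apart. Cells were taken as primary microvascular ECs with beads against PECAM-1, and their markers, given below, include those of other cell types at higher signals than the endothelial ones. No label states how many mice gave each library, and p-values therefore measure only the spread between these libraries. For Lrp1, the targeted gene, the mean signal of 65.5 ± 13.3 (SD, n = 4) in WT stood against 4.41 ± 1.65 (SD, n = 4) in LRP1 eKO, a log2 difference of -3.66 (limma adjusted p = 2.8e-06).

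Complement is a cascade of plasma proteases. In the classical pathway, C1q binds a target, C1r and C1s are activated within the same complex, and C4 and C2 are cleaved to form a convertase that cuts C3. The alternative pathway builds its own C3 convertase from factor B, cut by factor D, and C3b. Inhibitors stop each step in fluid (C1 inhibitor, factor I) or on the cell surface (CD55, CD59). The liver makes most circulating complement, largely in hepatocytes, while ECs both make some components and carry the surface inhibitors that spare them from attack.

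In LRP1 eKO libraries, 3 members fell and 1 rose. C1ra, the protease that starts the classical pathway, fell to 64.3% of its WT mean, C3, the central component, to 72.0%, and Serping1, the C1 inhibitor gene, to 81.9%. Cfb, the gene of factor B, rose to 130% of WT. The call rested on log2(signal + 1), compared between genotypes with limma over the 11391 genes whose signal reached 1 in 4 or more of the 8 libraries, at a Benjamini-Hochberg adjusted p below 0.05. Of the 9 members, 8 were tested, each with a signal above 1 in all 8 libraries. Cfd did not reach that level in any library. Among all genes tested, 22.2% were called lower and 19.0% were called higher by the same rule, against 3 and 1 of the 8 members. Fold changes on this scale understate those of genes with low signals, such as Cfb and C4b. With a 2-fold change also required, as in the methods of the study, 1.66% of all genes were called and 0 members were. At an unadjusted p below 0.05, 6 of the 8 members passed, beside 50.6% of all genes tested. The median log2 fold change was -0.19 over the 8 members and -0.0095 over all genes tested.

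**Figure D1:**
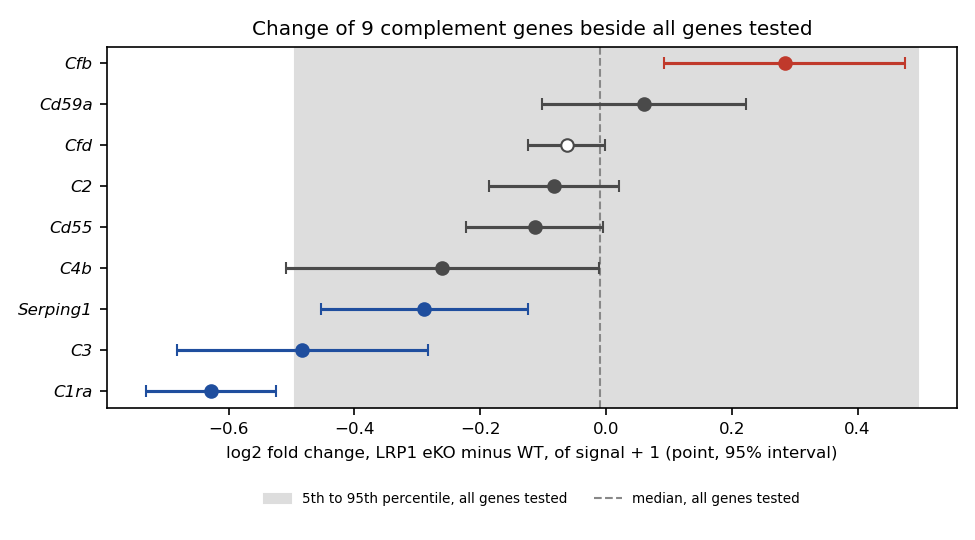
Log2 fold change of LRP1 eKO over WT for each member on the log2(signal + 1) scale, with its 95% confidence interval, in blue where called lower, red where called higher and dark grey where not called, over a band from the 5th to the 95th percentile of all genes tested. C1ra lies outside the band and C3 at its edge, and Cfd, the open point, was below the level required for testing and comes from a fit without that filter.

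Some libraries stood apart. WT replicate 4 was the farthest of the WT libraries from their median for 61.7% of genes tested, and LRP1 eKO replicate 2 was the farthest of its group for 37.2%. The summed pan-endothelial signal was 37.2 to 39.1 in WT and 39.2 to 55.4 in LRP1 eKO libraries, far below the mesothelial and fibroblast sums that follow, although sums over different genes on a signal of unstated unit compare only roughly. The signal of Cdh5 was 1.26 to 2.27 in WT and 2.21 to 4.99 in LRP1 eKO libraries, that of Pecam1 was 1.53 to 2.50 and 1.84 to 3.85, and Tek and Erg were below 1 in every library. Of 7 pan-endothelial markers tested 2 were higher, and of 4 sinusoidal markers 1 was higher. Markers of other cells were present, and some differed by genotype. All 6 hepatocyte markers tested were lower, with a summed signal of 90.4 to 132 in WT and 34.7 to 44.2 in LRP1 eKO libraries, led by Ahsg (mean 41.1 and 14.0), while Apob, Tat, Cyp2e1 and Hnf4a were below 1 throughout. Macrophage and Kupffer cell markers, led by Lyz2, summed to 103 to 201 in WT libraries, and to 606, 52.4, 560 and 331 in LRP1 eKO replicates 1 to 4, with 1 of 8 called higher, so that replicate 2 lay below every WT library. Stellate and fibroblast markers, led by Col1a2, summed to 2047 to 2358 and 1794 to 2254 (9 tested, 1 higher, 3 lower; the sums overlapped), and mesothelial markers, led by Msln, to 2463 to 2929 and 3099 to 3426 (8 tested, 2 higher, 1 lower). All 5 skeletal muscle markers tested were lower, with sums of 32.5 to 55.5 and 5.83 to 7.75. The 1 neutrophil marker tested was higher, with sums of 0.735 to 1.84 and 1.5 to 3.62 and with Ly6g and Retnlg at 0. The part of these cells in the results on complement was not tested. In such bulk libraries, fewer cells of a type and less RNA per cell cannot be told apart.

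C1ra (ENSMUSG00000055172) encodes the protease that, within the C1 complex, first activates itself and then C1s. On GRCm38 it lies on the plus strand at chr6:124512405-124523443. Its signal was 76.8, 77.6, 79.2 and 78.4 in WT replicates 1 to 4, and 51.3, 46.7, 53.1 and 49.6 in LRP1 eKO replicates 1 to 4. The WT values were nearly level and every LRP1 eKO value lay at least 23.7 below them. The means were 78.0 ± 1.04 and 50.2 ± 2.71 (SD, n = 4 each), and the log2 fold change was -0.63 (SE 0.0462, limma adjusted p = 8.3e-06). Permuting the libraries gave p = 0.029 for the means (exact two-sided test), the smallest that 4 libraries against 4 allow. A lower log2 fold change was seen in 2.90% of all genes tested. Leaving out LRP1 eKO replicate 2 left a log2 fold change of -0.60. That library had the lowest pan-endothelial, sinusoidal, macrophage, hepatocyte and fibroblast sums of its group, and the highest mesothelial sum. The classical pathway's other protease gene pair fell too, with smaller log2 fold changes. C1s1 fell from 247 ± 14.8 to 212 ± 6.18 (SD, n = 4 each; log2 fold change -0.22, limma adjusted p = 0.0076), and C1s2 from 4.90 ± 0.213 to 3.87 ± 0.188 (SD, n = 4 each; -0.28, limma adjusted p = 0.0038). These are copies of a gene: 21.8% of the 50-base stretches of C1s1 transcripts also occur in C1s2. Of those of C1ra, 48.0% occur in C1rb, for which no row was matched. How reads shared by such copies were assigned is not stated, so the values of C1ra, C1s1 and C1s2 are uncertain to that degree.

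The sequence around the start of C1ra is shown, since this gene had the smallest adjusted p of the 9 (RefSeq, GRCm38.p6, plus strand, chr6:124512371-124512670, 250 bases before to 50 after the RefSeq start, 5′ to 3′). For this gene the RefSeq start lies 216 bases downstream of the GENCODE start given above, so that most of the window is inside the GENCODE gene. For the other 4 promoters matched, the starts coincide. Capitals mark the single match to the gamma-activated site TTCNNNGAA, a motif bound by STAT factors, which begins 32 bases after the RefSeq start. The motif was searched on both strands and occurs in 8.30% of 32851 promoters of that length. The GAAANNGAAA core of the interferon-stimulated response element, found in 3.44% of promoters, did not occur in it.
C1ra promoter: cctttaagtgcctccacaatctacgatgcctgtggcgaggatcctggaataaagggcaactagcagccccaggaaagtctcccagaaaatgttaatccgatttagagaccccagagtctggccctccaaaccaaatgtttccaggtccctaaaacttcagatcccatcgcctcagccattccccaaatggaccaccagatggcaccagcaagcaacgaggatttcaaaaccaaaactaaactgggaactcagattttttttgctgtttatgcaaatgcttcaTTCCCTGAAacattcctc

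C2 (ENSMUSG00000024371) and C4b (ENSMUSG00000073418) supply the subunits of the classical C3 convertase, C2 its protease part and C4 the part that attaches to the target. Neither was called. The C2 signal was 36.7, 38.2, 38.9 and 39.5 in WT replicates 1 to 4 and 37.4, 34.0, 36.4 and 36.9 in LRP1 eKO replicates 1 to 4. The groups overlapped, since LRP1 eKO replicates 1 and 4 exceeded WT replicate 1. The means were 38.3 ± 1.22 and 36.2 ± 1.52 (SD, n = 4 each), and the log2 fold change of -0.082 had a 95% interval from -0.19 to 0.021 (limma adjusted p = 0.18). The C4b signal was 2.25, 2.14, 1.86 and 2.85 in WT and 2.05, 1.32, 1.93 and 1.64 in LRP1 eKO libraries, in the same order. LRP1 eKO replicates 1 and 3 exceeded the lowest WT library, replicate 3. The means were 2.28 ± 0.419 and 1.74 ± 0.328 (SD, n = 4 each), and the log2 fold change of -0.26 (95% interval -0.51 to -0.011, limma adjusted p = 0.087) was not past the threshold. Of the 50-base stretches of C4b transcripts 34.6% also occur in C4a, a near-identical neighbour for which no row was matched. The C4b value may therefore hold reads of both.

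C1q, which recognises targets and is made mainly by macrophages, differed from these components in its spread. C1qb had signals of 12.3, 13.0, 13.2 and 6.41 in WT and 76.2, 2.34, 68.3 and 38.3 in LRP1 eKO libraries. In LRP1 eKO libraries it was high in replicates 1, 3 and 4 and lowest of all in replicate 2, the order in which the macrophage marker sums stood. The log2 fold change over all libraries was 1.29 (limma adjusted p = 0.24). Leaving out LRP1 eKO replicate 2 raised it to 2.33 (limma adjusted p = 0.00030). C1qa and C1qc had log2 fold changes of 1.27 and 1.28 (limma adjusted p = 0.27 and 0.25). The protease and the recognition part of C1 thus had opposite signs of fold change, of which the fall of the protease genes was called.

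C3 (ENSMUSG00000024164), on which all activation pathways meet, lies on the minus strand at chr17:57203970-57228136. Its signal was 277, 285, 268 and 273 in WT replicates 1 to 4, and 216, 163, 226 and 189 in LRP1 eKO replicates 1 to 4. No LRP1 eKO library reached the WT range, and replicate 2 was the lowest. The means were 276 ± 7.15 and 199 ± 28.1 (SD, n = 4 each), and the log2 fold change was -0.48 (SE 0.0895, limma adjusted p = 0.0023; exact two-sided permutation test, p = 0.029). The spread among LRP1 eKO libraries was thus wider than among WT libraries. Without LRP1 eKO replicate 2 the log2 fold change was -0.39 (limma adjusted p = 0.0015). Of all genes tested, 5.31% had a lower log2 fold change. The 300 bases around the start of C3 are shown because all activation pathways meet on this gene's product (RefSeq, GRCm38.p6, minus strand, chr17:57228087-57228386, 5′ to 3′). They held no match to either motif named above, so no base is in capitals.
C3 promoter: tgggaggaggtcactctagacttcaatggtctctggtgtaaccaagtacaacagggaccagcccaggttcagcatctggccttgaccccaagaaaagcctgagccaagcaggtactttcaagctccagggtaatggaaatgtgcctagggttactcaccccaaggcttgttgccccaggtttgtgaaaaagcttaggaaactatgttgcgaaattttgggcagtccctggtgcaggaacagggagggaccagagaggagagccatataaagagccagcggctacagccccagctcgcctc

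Cfb (ENSMUSG00000090231) encodes factor B, the protease part of the alternative C3 convertase, and was the member that rose. Its signal was 2.71, 2.41, 2.01 and 2.98 in WT replicates 1 to 4 and 3.22, 3.29, 3.16 and 3.41 in LRP1 eKO replicates 1 to 4. LRP1 eKO values stood close together, and the lowest of them was 0.185 above the highest WT value, that of replicate 4. The means were 2.53 ± 0.417 and 3.27 ± 0.109 (SD, n = 4 each), and the log2 fold change was 0.28 (SE 0.0856, limma adjusted p = 0.024; exact two-sided permutation test, p = 0.029). Of all genes tested, 13.6% had a higher log2 fold change. The call was not held by every set of libraries: the limma adjusted p was 0.064 without LRP1 eKO replicate 4, 0.057 without WT replicate 2 and 0.050, just over the threshold, without WT replicate 3. Cfp, which encodes properdin, the stabiliser of that convertase, also rose, from 1.06 to 1.44 in WT to 1.09 to 4.18 in LRP1 eKO libraries (log2 fold change 0.72, limma adjusted p = 0.037), but its groups overlapped. Cfd (ENSMUSG00000061780) encodes factor D, the protease that cuts factor B and a product of fat cells. Its signal was 0, 0.0794, 0.0457 and 0.0862 in WT and 0, 0.0314, 0 and 0 in LRP1 eKO libraries, and every adipocyte marker examined was also below 1 in all libraries. The log2 fold change was -0.062 (limma adjusted p = 0.12 in a fit without the filter). In that fit its adjusted p passed the threshold when WT replicate 1, the WT library at 0, was left out (-0.087, limma adjusted p = 0.018). This is no call by the rule used here, since Cfd stayed below the level required for testing.

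**Figure D2:**
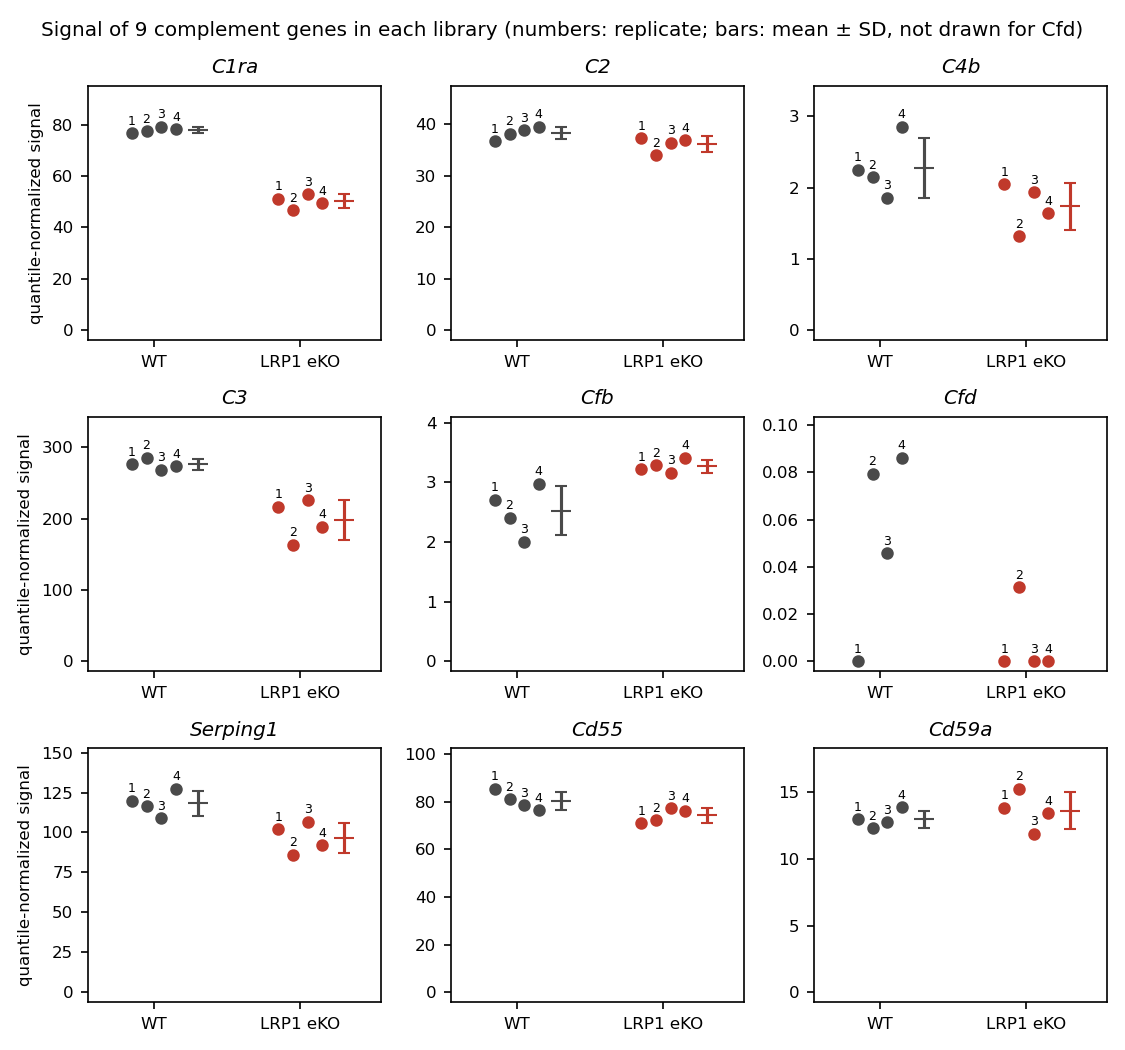
Signal of each of the 9 members in every library on a linear axis of its own, with WT and LRP1 eKO replicates as points and the mean ± SD of each group as bars, which are left out for Cfd. C3, Serping1 and C1ra separate downwards and Cfb upwards, whereas the groups of the other 5 members overlap.

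Serping1 (ENSMUSG00000023224; chr2:84765387-84775444, minus strand) encodes the C1 inhibitor, a serpin that blocks C1r and C1s and also the contact pathway protease kallikrein. Its signal was 120, 116, 109 and 127 in WT replicates 1 to 4 and 102, 86.0, 107 and 92.0 in LRP1 eKO replicates 1 to 4. The groups did not overlap, but LRP1 eKO replicate 3 came within 2.25 of WT replicate 3. The means were 118 ± 7.65 and 96.8 ± 9.44 (SD, n = 4 each), and the log2 fold change was -0.29 (SE 0.0737, limma adjusted p = 0.012; exact two-sided permutation test, p = 0.029). Of all genes tested, 13.3% had a lower log2 fold change. Groups without overlap were common in these data, at 22.5% of all genes in the lower and 20.0% in the higher direction. Within the LRP1 eKO group Serping1, C3 and C1ra shared 1 order of libraries, with replicate 3 highest, then 1, then 4, and replicate 2 lowest. The summed stellate and fibroblast signal of that group had the same order, at 2131, 1794, 2254 and 2004 in replicates 1 to 4, although these sums overlapped those of WT. This match was picked after the values were seen. In WT replicates 1 to 4 the sums were 2326, 2358, 2295 and 2047, an order that none of these genes had in WT. The summed hepatocyte signal of the LRP1 eKO group was also lowest in replicate 2, and it was highest in replicate 1. The part of either cell type in the fall of these members was not tested.

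Neither surface inhibitor was called. Cd55 (ENSMUSG00000026399) encodes decay accelerating factor, which breaks up C3 convertases, and lies at chr1:130439027-130462744 on the minus strand. Its signal was 85.5, 81.1, 78.6 and 76.5 in WT replicates 1 to 4 and 71.0, 72.4, 77.4 and 76.2 in LRP1 eKO replicates 1 to 4. LRP1 eKO replicate 3 lay above WT replicate 4, and the other LRP1 eKO libraries lay below every WT library. The means were 80.4 ± 3.86 and 74.3 ± 3.07 (SD, n = 4 each). The log2 fold change was -0.11 (95% interval -0.22 to -0.0042, limma adjusted p = 0.088). Without WT replicate 4 the limma adjusted p was 0.036 and the log2 fold change -0.14. Cd59a (ENSMUSG00000032679) encodes the inhibitor of the membrane attack complex. Its signal was 13.0, 12.3, 12.7 and 13.9 in WT and 13.8, 15.3, 11.9 and 13.4 in LRP1 eKO libraries. The groups overlapped fully, and the lowest and the highest library were both LRP1 eKO. The means were 13.0 ± 0.660 and 13.6 ± 1.39 (SD, n = 4 each). The log2 fold change was 0.061 (95% interval -0.10 to 0.22, limma adjusted p = 0.53). Their paralogs, which share few sequences with them (8.0% of 50-base stretches for Cd55 in Cd55b, 3.87% for Cd59a in Cd59b), were not called either, at -0.12 for Cd55b (limma adjusted p = 0.19) and -0.048 for Cd59b (limma adjusted p = 0.82) on the log2 scale.

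Of the promoters matched, that of Cd59a alone held the interferon-stimulated core, beginning 187 bases before the start, and it is shown as the contrast to C1ra (RefSeq, GRCm38.p6, plus strand, chr2:104095551-104095850, 5′ to 3′, with the match in capitals). A match is a run of letters and says nothing of binding. Promoters of 5 of the 9 members were matched in all (C3, C1ra, Cfd, Cd55 and Cd59a). Those of Cfd and Cd55 held neither motif.
Cd59a promoter: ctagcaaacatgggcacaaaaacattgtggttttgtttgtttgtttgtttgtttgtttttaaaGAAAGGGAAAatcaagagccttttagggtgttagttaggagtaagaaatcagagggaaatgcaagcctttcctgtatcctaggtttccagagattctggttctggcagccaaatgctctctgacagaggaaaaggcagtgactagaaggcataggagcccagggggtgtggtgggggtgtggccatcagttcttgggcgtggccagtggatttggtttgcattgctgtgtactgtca

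The members were next set within the whole complement system, a list of 54 names of which 52 had a row and 30 were tested. Of these 30 genes 8 fell, 5 rose and 17 were not called, with a median log2 fold change of 0.0093. Without the members, 5 of 22 fell and 4 rose. Beside the 22.2% lower and 19.0% higher of all genes tested, these shares are near the background and are no result about the list. In the classical pathway 3 of 8 genes fell and 0 rose, those being the proteases C1ra, C1s1 and C1s2. Soluble regulators were called in both directions. Cfi, the gene of factor I, which cleaves C3b and C4b, had the lowest log2(signal + 1) fold change of the 30 tested genes, falling from 12.4 ± 1.79 to 4.25 ± 0.314 (SD, n = 4 each; log2 fold change -1.35, limma adjusted p = 4.8e-06). Clu, clusterin, an inhibitor of the terminal complex, fell from 317 ± 14.6 to 201 ± 15 (SD, n = 4 each; -0.66, limma adjusted p = 3.0e-05). C4bp, the fluid-phase inhibitor of the classical convertase, rose from 1.15 ± 0.170 to 2.63 ± 0.922 (SD, n = 4 each; 0.72, limma adjusted p = 0.0064). Serping1 therefore fell with Cfi and Clu, each with a larger log2 fold change than Serping1. The summed hepatocyte signal also fell in these libraries. Of 9 stellate and fibroblast markers tested, Pdgfra, Dcn and Lum were called lower, at log2 fold changes of -0.58, -0.30 and -0.69. Hand2 was called higher (0.35), and 5 were not called. The part of hepatocytes or of these other cells in the fall of soluble inhibitors, which hepatocytes make, was not tested.

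**Figure D3:**
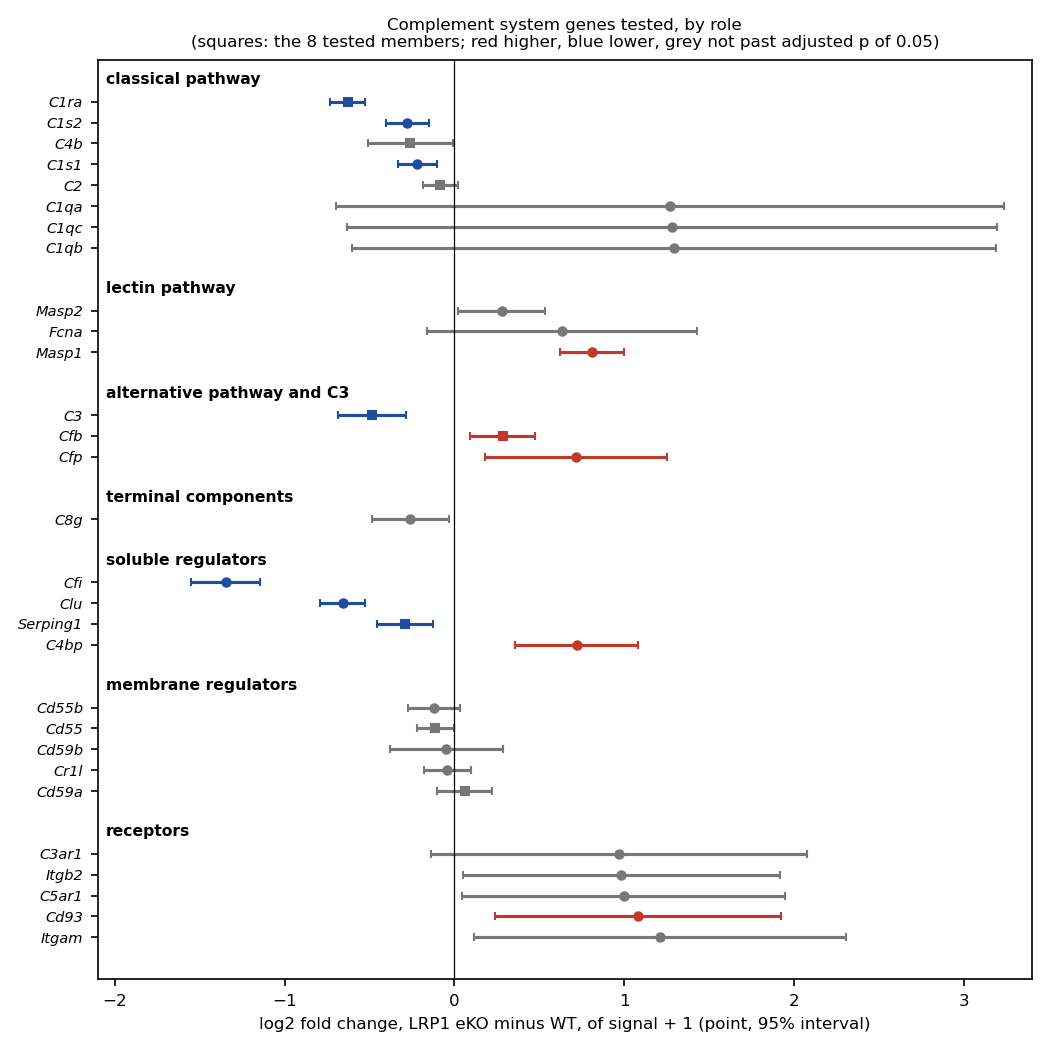
Log2 fold change of LRP1 eKO over WT for 29 of the tested genes of the complement system, grouped by role, as points with 95% confidence intervals, squares for members, and colour for genes called higher (red), lower (blue) or not called (grey). Of the genes drawn, C1ra, C1s1, C1s2, C3, Serping1, Cfi and Clu were called lower, and Masp1, Cfb, Cfp, C4bp and Cd93 higher. The membrane regulators lie near 0, and the C1q genes near 1.3 were not called.

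Of 3 lectin pathway genes tested Masp1, a protease of that pathway, rose from 3.93 ± 0.303 to 7.66 ± 0.969 (SD, n = 4 each; log2 fold change 0.81, limma adjusted p = 8.0e-05). Masp2 was not called (0.28 on the log2 scale, limma adjusted p = 0.075), nor was Fcna, ficolin A (0.63, limma adjusted p = 0.18). C8g, the only terminal gene tested, was not called (-0.26 on the log2 scale, limma adjusted p = 0.064). Of the 5 membrane regulators 0 were called, Cd55 and Cd59a among them, and the value of Cr1l was -0.042 on the log2 scale (limma adjusted p = 0.61). Of the 5 receptors Cd93, an endothelial and myeloid surface protein once taken for a C1q receptor, rose from 0.939 to 2.04 in WT to 1.25 to 7.82 in LRP1 eKO libraries (log2 fold change 1.08, limma adjusted p = 0.043). The complement receptor 3 subunit genes Itgam and Itgb2 had log2 fold changes of 1.21 and 0.98 (limma adjusted p = 0.073 and 0.085). Cd93, like Cfp, was lowest of its group in LRP1 eKO replicate 2, where the macrophage, pan-endothelial and sinusoidal sums were also lowest. The part of any of these cells in either rise was not tested. Cfi and Cd93 were the 2 genes of the list past both thresholds.

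LRP1 eKO replicate 2 decided part of this. Without it, 9 of 30 tested genes were lower and 13 were higher, against 20.8% lower and 16.9% higher among all 11314 genes then tested. The 8 genes called lower with all libraries were all called lower again, with C8g added, and the 5 called higher were all called higher again. The 8 further genes called higher were C1qa, C1qb, C1qc, Fcna, C3ar1, C5ar1, Itgam and Itgb2, named after their values were seen and known mainly from macrophages and other myeloid cells. The summed macrophage signal was 52.4 in the library left out and 331 to 606 in the rest of its group. The summed pan-endothelial and sinusoidal signals of that group were lowest in that library too, at 39.2 and 8.82. The part of any of these cells in the further calls was not tested. The member calls were those made with all libraries, with C1ra, C3 and Serping1 lower and Cfb higher. For those members the same library was the lowest of the 4 LRP1 eKO libraries in C1ra, C3 and Serping1, as it was in C2 and C4b.

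**Figure D4:**
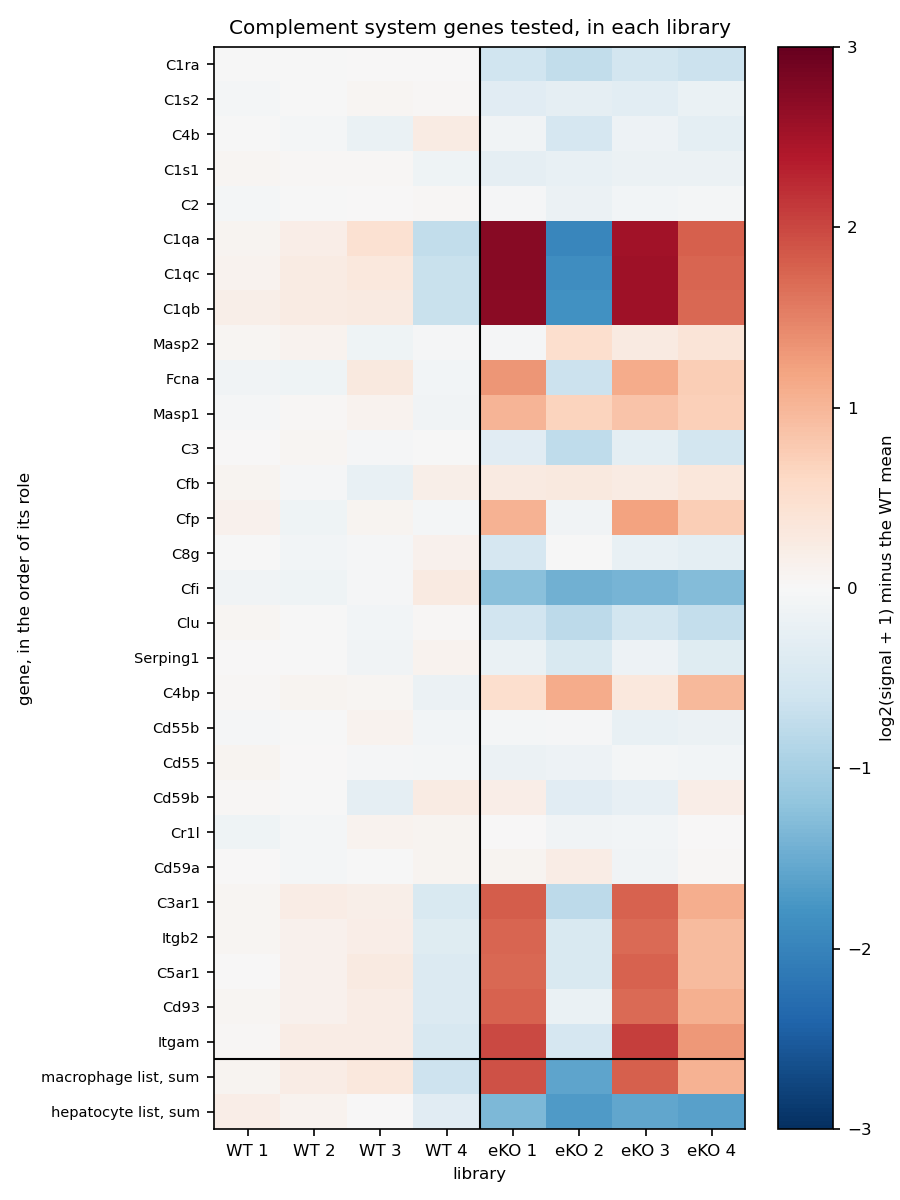
Deviation of log2(signal + 1) from the WT mean, as colour (red above, blue below), for 29 of the tested complement genes and, in the last rows, the summed macrophage and hepatocyte markers, in each of the 8 libraries. C1ra, C3 and Serping1 are below 0 in all 4 LRP1 eKO libraries and lowest in replicate 2, and Cfb is above 0 in all 4.

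C4b, Cfb and C2 lie within the class III region of the major histocompatibility complex on chromosome 17, on the minus strand (C4b at chr17:34728380-34743882, Cfb at chr17:34856374-34862518, C2 at chr17:34862604-34898265). Neighbouring genes did not share 1 direction. The log2 fold changes were -0.26 for C4b, 0.28 for Cfb and -0.082 for C2. Between C4b and Cfb, Stk19 (-0.10), Dxo (0.0086), Skiv2l (0.0028) and Nelfe (-0.17, limma adjusted p = 0.073) were not called, and Cyp21a1 was below the level tested. Zbtb12, on the opposite strand within the C2 locus, fell by 0.49 on the log2 scale (limma adjusted p = 0.00044). Gm20547, a readthrough gene, spans C2 and Cfb and shares 38.7% of the 50-base stretches of C2 and 73.0% of those of Cfb. Its own signal was 0.0039, 0.478, 0.167 and 0.008 in WT replicates 1 to 4 and at most 0.0444 in LRP1 eKO libraries. WT replicates 2 and 3, where it was highest, had the lowest Cfb signals (2.41 and 2.01). The part of shared reads in the rise of Cfb was not tested. The files do not say how shared reads or strands were counted, so Cfb and C2 are uncertain where these transcripts overlap, as is Cd55, which overlaps the antisense gene Gm16083.

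Finally, the genes whose profile over the 8 libraries lay closest to C3 and to Cfb were listed by the root mean square difference of their deviations from the WT mean. For C3 these were Cdc25b (0.0379), Ifitm2 (0.0398), Hspb7 (0.0434), Rasa3 (0.0492) and Ace (0.0495). For Cfb they were Mitd1 (0.0483), Rgs11 (0.0620), Oas1c (0.0640), Gm14288 (0.0667) and Rnf114 (0.0687). None of these 10 genes is a complement component.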

How the data were processed

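The 8 mRNA sequencing libraries, 4 WT and 4 LRP1 eKO, came from cells selected from liver as ECs, and groups were taken from the sample labels. The authors deposited a quantile-normalised signal for 22520 genes, with 1 column for each library, and all columns were used. The submitters' processing notes name TopHat2, Cufflinks and mm10, whereas the methods of the study name STAR, featureCounts, a GENCODE gene model and edgeR. Neither describes this table, and the unit of the signal before normalisation is not stated, so levels of complement genes were not ranked against each other, and sums of markers and leading markers describe this signal only. Column sums of 484445 to 485947 were fixed by the normalisation, the depth is therefore unknown, and a shift common to all genes would be removed. Between 6186 and 6621 genes were at 0 in a library.

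The log2(signal + 1) was fitted with limma (version 3.58.1, R 4.3.3) on genotype alone, with a mean-variance trend and p-values adjusted over the 11391 genes kept by the filter. The study's edgeR test could not be used, since the values are not counts. Exact two-sided permutation tests compared group means of single members. Simulated data for this comparison with 11391 genes were used to test the script: among 200 genes shifted by a log2 value of 1 it found 199, with 10 false calls, and among 200 shifted by 0.5 it found 161, with 13 false calls. With none changed, 0 were called. The shifted genes were drawn only from those above a floor of mean log2(signal + 1), which Cfb and C4b did not reach. Recovery at such low signals was therefore not tested.

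The members, the complement and cell type lists and the tests were chosen with earlier results of these data known. All members were named, and of the other complement genes the 3 with the smallest adjusted p in each role, with departures stated. The result of 1 gene of the complement list is not reported here, and the gene is counted with the list but not drawn. Table symbols of some genes are older than those used here, and 21740 of 22520 identifiers were found in GENCODE M21 on GRCm38, which gave positions and the shared 50-base stretches. Promoters came from RefSeq tables. Alternatives were pseudocounts, filters, limma settings, array weights, centring on a trimmed mean, a ratio of arithmetic means, the replicate number as a block and leaving out libraries. Plots were made in Python 3.11.15 using matplotlib 3.10.9.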

Additional observations from a re-analysis of the deposited data

Results flagged for a closer look

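Cfd was flagged in the LRP1 eKO group because replicate 2, with a signal of 0.0314, stood apart from the other libraries, all at 0. Its gap to the nearest of them was the whole range of the group, a ratio of 1. Over the 18 groups examined, 9 members in each genotype, chance flags about 0.9. The signal was far below the level required for testing.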

How the results depend on the processing

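C1ra, C3 and Serping1 were lower under every alternative run, with log2 fold changes of -0.66 to -0.59, -0.55 to -0.39 and -0.34 to -0.20. No member with a test changed its direction. The count of 1 member higher, Cfb, was 0 with a minimum mean signal of 5, where Cfb, C4b and Cfd were no longer tested, and 0 to 1 when libraries were left out in turn. Of the complement system 5 genes were higher with all libraries, 3 with no filter, 1 with a minimum mean signal of 5 and 13 with array weights, beside 8, 11, 7 and 10 lower. Leaving out libraries in turn gave 2 to 13 higher. Without LRP1 eKO replicate 2 there were 13, beside 16.9% of all genes, and 9 lower, beside 20.8%. The balance of the list thus turned, as with array weights. The count was 2 without LRP1 eKO replicate 4 or WT replicate 2 or 3, and 3 without LRP1 eKO replicate 3, WT replicate 1 or WT replicate 4. The number of list genes tested changed with the filter. Shares of all genes called are not given here for the filters, array weights or other single libraries left out, so those counts are no result about the list. Without both WT replicate 4 and LRP1 eKO replicate 2, an alternative chosen after seeing the data, 13 were higher, beside 20.3% of all genes. The cause was not tested. Cd55 was called lower with array weights (log2 fold change -0.13, limma adjusted p = 0.024), and C4b ranged from -0.38 to -0.10 without a call. With the replicate number as a replicate block, 1 member was higher and 3 were lower, and 5 and 8 genes of the complement system, and no call of a member changed. The labels do not say whether the numbers pair the libraries. Deviations of libraries with the same number correlated at -0.086, -0.13, 0.18 and 0.038, and 0 of 8 libraries correlated best with their own number. No sign of pairing was thus seen, although so few libraries cannot exclude it. Cfd moved to -2.75 with a ratio of arithmetic means, and unknown depth limits what can be said of it.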

Other observations

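Colec11, a lectin of the complement system below the level required for testing, had signals of 0.669 to 1.09 in WT and 0.239 to 0.399 in LRP1 eKO libraries, with no overlap. Vsig4, a complement receptor of Kupffer cells, also below that level, ranged from 0.422 to 0.875 in WT and from 0.0381 in replicate 2 to 7.03 in the LRP1 eKO group. Within WT libraries C4b, Cfb and Serping1 shared 1 order, with replicate 3 lowest, then 2, then 1, and replicate 4 highest, although C4b was not called, Cfb rose and Serping1 fell in LRP1 eKO libraries. These genes and this order were chosen after their values were seen.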
